A study of Rattus norvegicus with 9 samples.

Results

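The genes described here are the antioxidant, glutathione and metallothionein genes of the rat cortex. They were chosen by gene symbol: every probe whose platform symbol belongs to the glutathione transferases (Gsta, Gstm, Gsto, Gstp, Gstk, Gstt, Gstz and Mgst), glutathione peroxidases (Gpx), peroxiredoxins (Prdx), superoxide dismutases (Sod1, Sod2 and Sod3), thioredoxin-named genes (Txn), catalase (Cat), quinone reductases (Nqo), haem oxygenases (Hmox), the enzymes of glutathione synthesis and reduction (Gclc, Gclm, Gss and Gsr), metallothioneins (Mt), methionine sulfoxide reductases (Msr), Srxn1, Park7 or the Nfe2l factors. This gave 59 of 10412 named genes, read by 60 of the 10687 probes with 1 symbol among the 15912 in the deposited value table. Srxn1, which reactivates peroxiredoxins, and Mt2A, another inducible metallothionein, had no named probe here. The samples were cerebral cortex from 9 Sprague-Dawley rats, an outbred laboratory strain, at 60 days of age, 4 males and 5 females, with 1 Illumina bead array per animal. All 9 had been exposed in the womb, on gestation day 17, to 145 cGy from a caesium source, a treatment that the series uses to model cortical dysplasia, in which the cortex is malformed. Unirradiated animals were not analysed here, so no value below measures an effect of radiation. The sample titles also hold a number, with 3 values, whose meaning no label gives. Males 3 and 4 and females 2 and 3 share the second number, females 4 and 5 the third, and males 1 and 2 and female 1 the first.

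Cells of the brain consume much oxygen and form superoxide and hydrogen peroxide as by-products. Superoxide dismutases turn superoxide into hydrogen peroxide, which catalase breaks down. The glutathione peroxidases and the peroxiredoxins reduce hydrogen peroxide, drawing electrons from glutathione or thioredoxin. Glutathione transferases couple glutathione to reactive compounds, and metallothioneins are small cysteine-rich proteins that bind zinc and copper. Many of these genes are switched on by the transcription factor Nfe2l2 (NRF2), which binds the antioxidant response element, and the inducible metallothioneins by the zinc sensor MTF1, which binds metal response elements. In the brain astrocytes are the main store of glutathione and a main source of metallothioneins, as known from rodents.

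The arrays as a whole ranged in median raw intensity from 47.9 to 57.2, and pairs of arrays correlated at 0.979 to 0.993 over 12370 tested probes. On the first principal component, with 33.5% of the variance, female 1, female 3 and male 2 stood apart at scores of 16.1 or more, against -13.1 to -4.53 in the other 6. Precision is limited by having 9 arrays, and in whole tissue a change in the number of cells of a type and in RNA per cell cannot be told apart. Of the marker genes with a probe, 5 of 5 for glutamatergic and 6 of 6 for GABAergic neurons were above background on all arrays. So were 10 of 10 astrocyte and 10 of 10 oligodendrocyte genes, against 62.7% of all probes in the value table. Genes of neighbouring tissue were also read, with 10 of 10 striatal and 3 of 11 choroid plexus genes above background throughout. These counts therefore cannot tell cortex from other brain regions. A score for choroid plexus, which averages how far its tested genes lay from their own means on the log2 scale, was 1.44 in female 1 and -0.51 to 0.46 in the others.

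The start regions of 4 members named in the results below are shown. Mt1 and Mt3 were taken as a pair of nearby genes with similar patterns over the animals. Gstm5 was taken as the member with the smallest p for title number, and Gstp1 as the one with the highest difference between the sexes. No test below used these sequences. Each is 300 bases, from 250 before to 50 after the annotated start, from RefSeq on build GRCr8, and is written 5′ to 3′ on the gene's own strand. In Mt1 (chr19:10832926-10833225, minus strand) and Mt3 (chr19:10856031-10856330, minus strand) the capitals mark the core of the metal response element, TGCACNC or TGCGCNC on either strand. In Gstm5 (chr2:198219519-198219818, plus strand) and Gstp1 (chr1:210769656-210769955, minus strand) they mark the core of the antioxidant response element, TGACNNNGC on either strand.
Mt1 promoter: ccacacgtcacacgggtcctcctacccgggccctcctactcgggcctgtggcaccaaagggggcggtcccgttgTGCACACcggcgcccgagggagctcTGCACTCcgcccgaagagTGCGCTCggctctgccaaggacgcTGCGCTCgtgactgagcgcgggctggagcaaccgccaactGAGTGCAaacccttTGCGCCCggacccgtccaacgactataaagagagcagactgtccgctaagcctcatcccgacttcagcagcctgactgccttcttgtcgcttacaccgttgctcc
Mt3 promoter: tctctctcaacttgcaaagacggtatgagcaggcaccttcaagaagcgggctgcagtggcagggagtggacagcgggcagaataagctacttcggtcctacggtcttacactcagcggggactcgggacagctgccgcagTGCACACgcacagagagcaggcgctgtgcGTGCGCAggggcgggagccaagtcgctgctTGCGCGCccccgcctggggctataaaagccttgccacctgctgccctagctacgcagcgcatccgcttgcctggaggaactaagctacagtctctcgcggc
Gstm5 promoter: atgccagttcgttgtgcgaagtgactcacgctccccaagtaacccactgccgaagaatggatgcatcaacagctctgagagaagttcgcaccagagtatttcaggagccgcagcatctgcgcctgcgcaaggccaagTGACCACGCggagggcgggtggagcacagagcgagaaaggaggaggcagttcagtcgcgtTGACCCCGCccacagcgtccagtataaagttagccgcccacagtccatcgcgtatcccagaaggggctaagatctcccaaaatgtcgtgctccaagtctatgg
Gstp1 promoter: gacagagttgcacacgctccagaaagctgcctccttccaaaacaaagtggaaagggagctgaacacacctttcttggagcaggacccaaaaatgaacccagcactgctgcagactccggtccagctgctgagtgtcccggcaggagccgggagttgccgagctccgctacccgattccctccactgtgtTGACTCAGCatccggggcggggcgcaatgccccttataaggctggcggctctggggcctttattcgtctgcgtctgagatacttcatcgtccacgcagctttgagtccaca
The Mt1 window held 6 metal response element cores and the Mt3 window 3. The Gstm5 window held 2 antioxidant response element cores, starting 113 and 53 bases before the gene's start, and the Gstp1 window 1, starting 61 bases before it. Over the members, 49 of 59 genes had a window in the table. The antioxidant core was found in 14 of these 49 (28.6%), against 12.2% of all 27457 promoters of the same length, and the metal core in 16 (32.7%), against 25% of all. The windows of Gclc and Nqo1, which are known NRF2 targets, held no antioxidant core, but bases outside the windows were not searched. GC boxes, GGGCGG on either strand, stood in 36 member windows (73.5%) and in 34.9% of all. A match of letters describes the window and shows no binding.

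Nearly all member probes of the value table read above background in this cortex. A probe was counted as above background on an array when it exceeded the 99th percentile of the 6605 probes on the arrays but absent from the value table. The bound lay at raw intensities of 46.6 to 54.1, below the median of every array. Members came from the value table alone, so their share above the bound covers no gene outside it. By that bound 56 of 60 member probes were above background on all 9 arrays, or 93.3%, against 62.7% of all probes in the value table. The 4 others were Gstm3, on 2 of 4 males and 3 of 5 females, Nfe2l3, on 1 of 4 males and 3 of 5 females, Gstm6, on 1 of 4 males and 2 of 5 females, and Gpx5, an epididymal peroxidase, on 1 of 4 males and 0 of 5 females. Probes above the bound on at least 4 arrays were tested, which left out Gpx5 and Gstm6 and kept 58 members.

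Between irradiated males and females no member passed the test. All values are log2 normalised intensities, differences are male minus female with the standard error of the limma fit, and p-values were adjusted by Benjamini-Hochberg over all 12370 tested probes. In limma 0 of 58 members had an adjusted p under 0.05, against 0% of all tested probes, and the lowest adjusted p of any member was 1.00. At an unadjusted p under 0.05 stood 1 member, Msra, which was higher in males, or 1.72% of 58 against 1.93% of all tested probes, made up of 0.768% higher and 1.16% lower in males. Differences ran from -0.29 to 0.29 with a median of 0.01, against a median of 0.00 over all tested probes. Of the 58, 34 were above 0 (58.6%), against 50.9% of all tested probes. No member had males and females without overlap, against 0.792% of all tested probes.

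**Figure D1:**
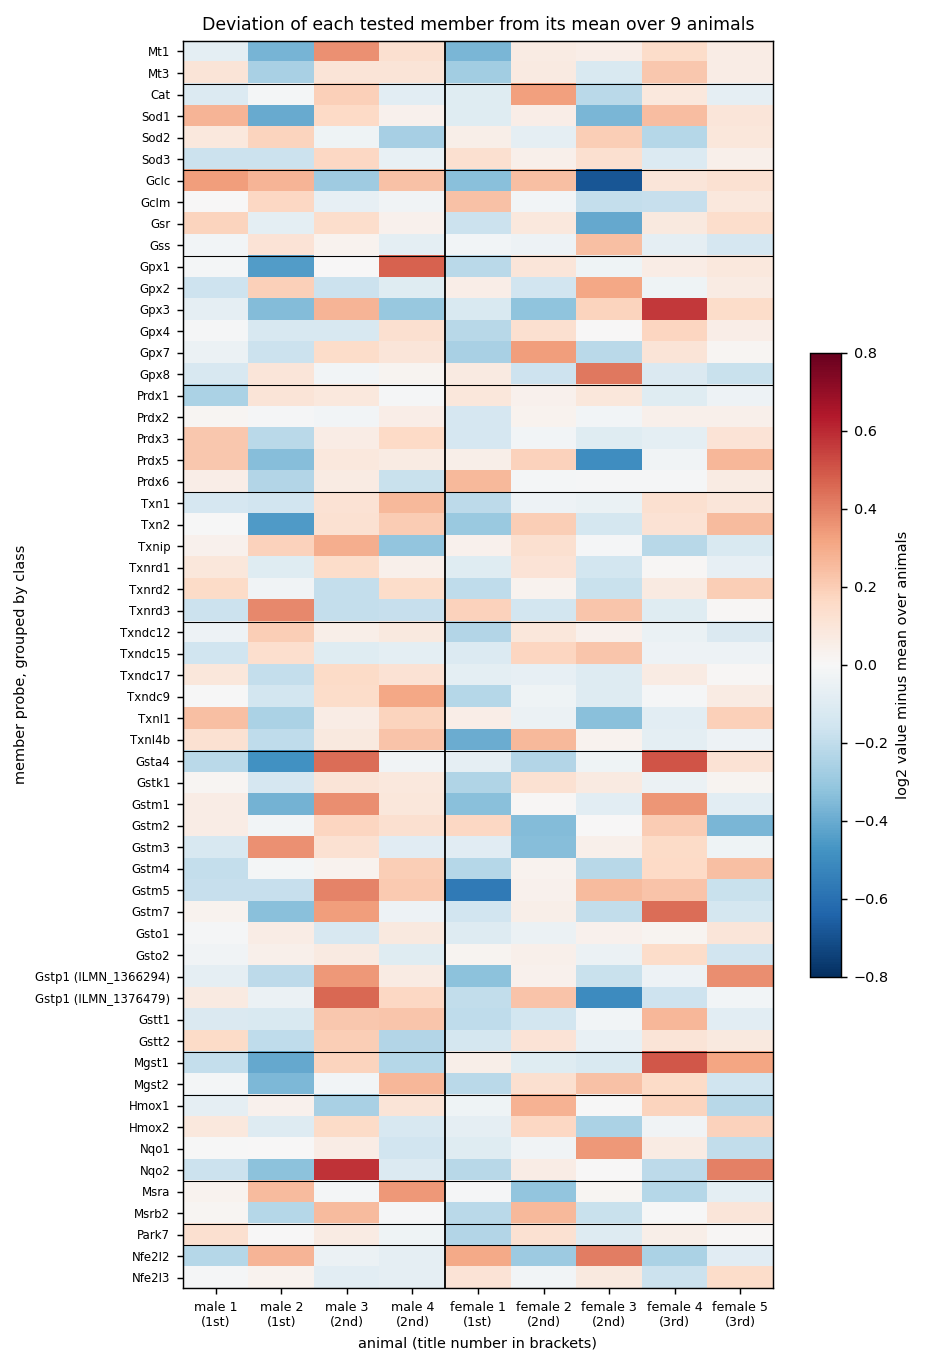
Deviation of each tested member (rows, grouped by class) from its own mean over the 9 animals (columns, males left of females, title number in brackets), as a difference of log2 values in colour. Gclc in female 3 is the deepest blue, and Mt1, Mt3, Gstm1 and Txn2 are blue in male 2 and female 1.

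The spread between animals was modest for most members. The SD within sex, pooled over males and females, had a median of 0.19 over the tested members, against 0.17 over all tested probes, and 18 of 58 members (31%) lay above the upper quartile of 0.22 that 25% of tested probes exceed. The ratio of the highest to the lowest animal ran from 1.14-fold to 2.03-fold, with a median of 1.46-fold. Gclc spread most, with an SD of 0.35 at the 95.1 percentile of all tested probes, followed by Gsta4 at 0.33, Nqo2 at 0.33 and Gstm5 at 0.32. Gsta4 and Nqo2 read close to background, at raw intensities of 55.9 to 89.4 and 62.6 to 96.4 against bounds of 46.6 to 54.1. Gstm5 read 882 to 1265. Prdx2, a cytosolic peroxiredoxin abundant in red cells and neurons, spread least, with an SD of 0.06 at the 0.922 percentile. Male 2 and female 1 gave the lowest value for 15 members each (25.9%), against 11.2% of all tested probes for male 2 and 15.2% for female 1. Female 3 was lowest for 9 members (15.5%), against 14.3% of all.

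Neither metallothionein passed the test for sex, and both were lowest in the same animals. Mt1, the zinc- and glucocorticoid-inducible form, read 8.70, 8.41, 9.14 and 8.90 in males 1 to 4, against 8.41, 8.84, 8.83, 8.93 and 8.84 in females 1 to 5. Male 2 and female 1 were lowest, and the sexes overlapped, with means of 8.79 ± 0.31 (SD) over the 4 males and 8.77 ± 0.21 (SD) over the 5 females and a difference of 0.02 ± 0.15. Mt3, the brain form also known as growth inhibitory factor, read 12.69, 12.33, 12.69 and 12.69 in males 1 to 4, against 12.31, 12.66, 12.46, 12.80 and 12.65 in females 1 to 5. Males 1, 3 and 4 hold the same value because quantile normalisation gives 1 value to probes of equal rank, and their raw intensities were 7506, 6065 and 6515. The difference was 0.02 ± 0.12, and male 2 and female 1 were again lowest. With title number as a block the differences were larger, at 0.17 ± 0.11 for Mt1 and 0.15 ± 0.12 for Mt3, at an adjusted p of 0.860 in limma for both. Mt1 differed by 0.14 within the first and 0.19 within the second title number, and Mt3 by 0.20 within the first and 0.12 within the second title number. Here and below, a difference within the first number sets males 1 and 2 against female 1 alone, so it rests on that animal. In the RefSeq order of protein-coding genes on chromosome 19, Mt1, Mt2A and Mt3 follow one another.

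No superoxide dismutase passed the test for sex, nor did catalase. Sod1, the cytosolic copper-zinc enzyme, read 11.73, 11.06, 11.62 and 11.50 in males 1 to 4, against 11.36, 11.52, 11.10, 11.70 and 11.55 in females 1 to 5. Male 2 and female 3 were lowest, and the sexes overlapped. Its difference was 0.03 ± 0.15. Sod2, the mitochondrial manganese enzyme, lay from 8.30 to 8.74 in males and 8.33 to 8.76 in females, with a difference of -0.02 ± 0.11. Sod3, the secreted form, averaged 7.52 ± 0.16 (SD) over the 4 males and 7.62 ± 0.10 (SD) over the 5 females, and its difference was -0.11 ± 0.10. Cat, which breaks down hydrogen peroxide in peroxisomes, averaged 6.62 ± 0.14 (SD) over the 4 males and 6.64 ± 0.21 (SD) over the 5 females.

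Among the enzymes that make and recycle glutathione, Gclc carried the widest spread of all members. Gclc, the catalytic subunit of the rate-limiting ligase, read 9.37, 9.30, 8.74 and 9.26 in males 1 to 4, against 8.70, 9.27, 8.35, 9.13 and 9.15 in females 1 to 5. Male 3, female 1 and female 3 stood low within a range of 2.03-fold, and the other 6 lay between 9.13 and 9.37. The difference was 0.25 ± 0.19, and 0.64 within the first and 0.19 within the second title number. It was -0.059 ± 0.16 without female 1, female 3 and male 2. Its partner Gclm, the modifier subunit, lay from 7.36 to 7.59 in males and 7.23 to 7.66 in females, and its difference was 0.03 ± 0.11. Gss, which adds glycine in the last step, lay from 6.30 to 6.49 in males and 6.24 to 6.62 in females. Gsr, which reduces oxidised glutathione, had its lowest value in female 3, as Gclc did, at 6.63, against 6.87 to 7.22 in the other animals, and differed by 0.12 ± 0.12. All 4 differences were above 0, and none passed the test.

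No glutathione peroxidase passed the test for sex. Gpx1, the abundant cytosolic selenoenzyme, read 8.73, 8.30, 8.75 and 9.22 in males 1 to 4, against 8.53, 8.85, 8.72, 8.81 and 8.83 in females 1 to 5. Male 4 was highest and male 2 lowest, so the males enclosed the females, and the difference was 0.01 ± 0.15, or -0.15 ± 0.13 without male 4. Gpx4, which reduces lipid hydroperoxides in membranes and guards against ferroptosis, averaged 11.53 ± 0.12 (SD) over the 4 males and 11.59 ± 0.15 (SD) over the 5 females. Gpx3, the secreted plasma form, averaged 6.92 ± 0.28 (SD) over the 4 males and 7.13 ± 0.34 (SD) over the 5 females, with a difference of -0.20 ± 0.17, which was -0.09 within the first and 0.06 within the second title number and -0.0014 after fitting title number as a block. Female 4 gave its highest value at 7.60. The endoplasmic reticulum forms Gpx7 and Gpx8 differed by 0.01 ± 0.13 and -0.01 ± 0.12, and Gpx2, the gastrointestinal form, by -0.11 ± 0.11.

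Peroxiredoxins had the lowest median SD of any class of more than 1 gene, with SDs from 0.06 to 0.28 and a median of 0.14. Prdx1 and Prdx2, the cytosolic forms, lay from 10.55 to 10.91 in males and 10.71 to 10.90 in females and from 11.55 to 11.62 in males and 11.44 to 11.61 in females. Prdx3, of mitochondria, differed by 0.10 ± 0.10. Prdx5, found in several organelles, spread more, at 11.08, 10.53, 10.95 and 10.93 in males 1 to 4, against 10.91, 11.05, 10.37, 10.84 and 11.13 in females 1 to 5. Female 3 and male 2 were lowest, and the difference was 0.01 ± 0.16. Prdx6, which also acts as a phospholipase and is prominent in astrocytes, averaged 10.91 ± 0.16 (SD) over the 4 males and 11.04 ± 0.12 (SD) over the 5 females, and its difference of -0.13 ± 0.10 was -0.35 within the first and -0.04 within the second title number.

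Thioredoxins and their partners did not pass the test for sex. Txn1, the cytosolic electron donor, read 10.10, 10.08, 10.35 and 10.49 in males 1 to 4, against 10.02, 10.19, 10.18, 10.36 and 10.33 in females 1 to 5. Males 1 and 2 and female 1, the 3 animals of the first title number, were lowest, and the difference between the sexes was 0.04 ± 0.11. Txn2, its mitochondrial counterpart, read 7.99, 7.55, 8.12 and 8.20 in males 1 to 4, against 7.70, 8.19, 7.86, 8.11 and 8.25 in females 1 to 5. Male 2 was lowest and female 1 next. The reductases Txnrd1, Txnrd2 and Txnrd3, which recharge thioredoxin, differed by 0.08 ± 0.09, 0.03 ± 0.11 and -0.07 ± 0.13. Txnip, which binds and inhibits thioredoxin and restrains glucose uptake, lay from 9.64 to 10.25 in males and 9.73 to 10.09 in females. In the thioredoxin-domain group, 5 of 6 differences were above 0. They ran from -0.09 ± 0.10 for Txndc15 to 0.14 ± 0.11 for Txndc9, which takes part in chaperonin-assisted folding. Txndc12, of the endoplasmic reticulum, had the smallest p of the class and differed by 0.12 ± 0.09, which was 0.31 within the first and -0.00 within the second title number.

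Cytosolic glutathione transferases formed the largest class, with 14 tested probes, and 9 of their differences were above 0. Gstp1, which in the brain is known from oligodendrocytes and astrocytes, had a pair of probes. The brighter, ILMN_1376479, read 9.66, 9.54, 10.05 and 9.75 in males 1 to 4, against 9.39, 9.82, 9.09, 9.43 and 9.57 in females 1 to 5. Male 3 was highest and female 3 lowest, and the difference was 0.29 ± 0.14, at an adjusted p of 1.00 in limma, and 0.21 within the first and 0.45 within the second title number. The other, ILMN_1366294, differed by 0.06 ± 0.15, and over the 9 animals the probes correlated at r = 0.63 (exact permutation p = 0.0656) and rho = 0.68 (exact permutation p = 0.0503). Female 5 was highest for ILMN_1366294 at 8.50 and near the middle for ILMN_1376479 at 9.57. Gstm5, a brain transferase of the mu class, read 9.81, 9.82, 10.40 and 10.21 in males 1 to 4, against 9.44, 10.03, 10.25, 10.23 and 9.82 in females 1 to 5. Female 1 was lowest and male 3 highest. Gstm1 and Gstm7 lay from 9.53 to 10.28 in males and 9.58 to 10.27 in females and from 9.09 to 9.75 in males and 9.22 to 9.87 in females, and for both male 3 and female 4 were the highest animals and male 2 the lowest. Gsta4, which conjugates aldehydes formed by lipid peroxidation, lay from 5.22 to 6.16 in males and 5.48 to 6.22 in females, again lowest in male 2 and highest in female 4 and male 3. On chromosome 2 the mu class genes follow one another without another protein-coding gene between them. They are close in sequence, and since probe sequences were not used here, signal shared between their probes cannot be told apart. Gsto1 and Gsto2, of the omega class, had SDs of 0.08 and 0.10. Of the microsomal enzymes, Mgst1 averaged 6.64 ± 0.25 (SD) over the 4 males and 6.93 ± 0.27 (SD) over the 5 females, with female 4 highest at 7.30 and male 2 lowest at 6.39. Its difference of -0.29 ± 0.15 was the lowest of any member, was -0.35 within the first and 0.09 within the second title number, and was -0.09 with the title number as a block.

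Neither the classical NRF2 targets nor NRF2 itself passed the test for sex. Hmox1, the inducible enzyme that degrades haem, read 5.99, 6.09, 5.80 and 6.16 in males 1 to 4, against 6.02, 6.34, 6.05, 6.24 and 5.83 in females 1 to 5. Male 3 and female 5 were lowest and female 2 highest, and the difference was -0.09 ± 0.12. Hmox2, the constitutive form of neurons, differed by 0.00 ± 0.11. Nqo1, which reduces quinones, averaged 8.38 ± 0.09 (SD) over the 4 males and 8.42 ± 0.21 (SD) over the 5 females, and female 3 was highest at 8.75. Nqo2 had an SD of 0.33, with male 3 at 6.40 and female 5 at 6.22 above the other 7, which lay from 5.49 to 5.88. Nfe2l2, which encodes NRF2, read 7.33, 7.83, 7.52 and 7.49 in males 1 to 4, against 7.87, 7.27, 7.97, 7.31 and 7.47 in females 1 to 5. Female 3, female 1 and male 2, the arrays that stood apart on the first principal component, were its 3 highest, so its spread moved with that component, whose part in the result was not tested. Park7 (DJ-1), a redox sensor mutated in a familial form of Parkinson disease, differed by 0.07 ± 0.09, and Nfe2l3, a relative of NRF2 that was mostly at background, by -0.06 ± 0.09.

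Msra, which repairs oxidised methionine in proteins, had the smallest p for sex of all members in the fit without a block. It read 5.51, 5.73, 5.46 and 5.83 in males 1 to 4, against 5.47, 5.17, 5.50, 5.25 and 5.40 in females 1 to 5. Its signal was close to background, at raw intensities of 49.0 to 70.1 against bounds of 46.6 to 54.1. The 2 lowest, females 2 and 4, stood at 49.0 and 52.1 against bounds of 46.7 and 47.2. Both top animals, males 4 and 2, were male, and male 3 lay below the highest females, 3 and 1. The means were 5.63 ± 0.18 (SD) over the 4 males and 5.36 ± 0.14 (SD) over the 5 females, and the difference was 0.28 ± 0.11, with an unadjusted p of 0.0245 and an adjusted p of 1.00 in limma. It was 0.15 within the first and 0.31 within the second title number. With the title number as a block the difference was 0.25 and the unadjusted p 0.0865. In that blocked fit Txndc9 had the smallest p of the members, with a difference of 0.24 ± 0.10, an unadjusted p of 0.0374 and an adjusted p of 0.847 in limma, followed by Gstp1 at 0.35 ± 0.17 and an unadjusted p of 0.0572. Msrb2, which repairs the other stereoisomer in mitochondria, differed by 0.01 ± 0.12.

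**Figure D2:**
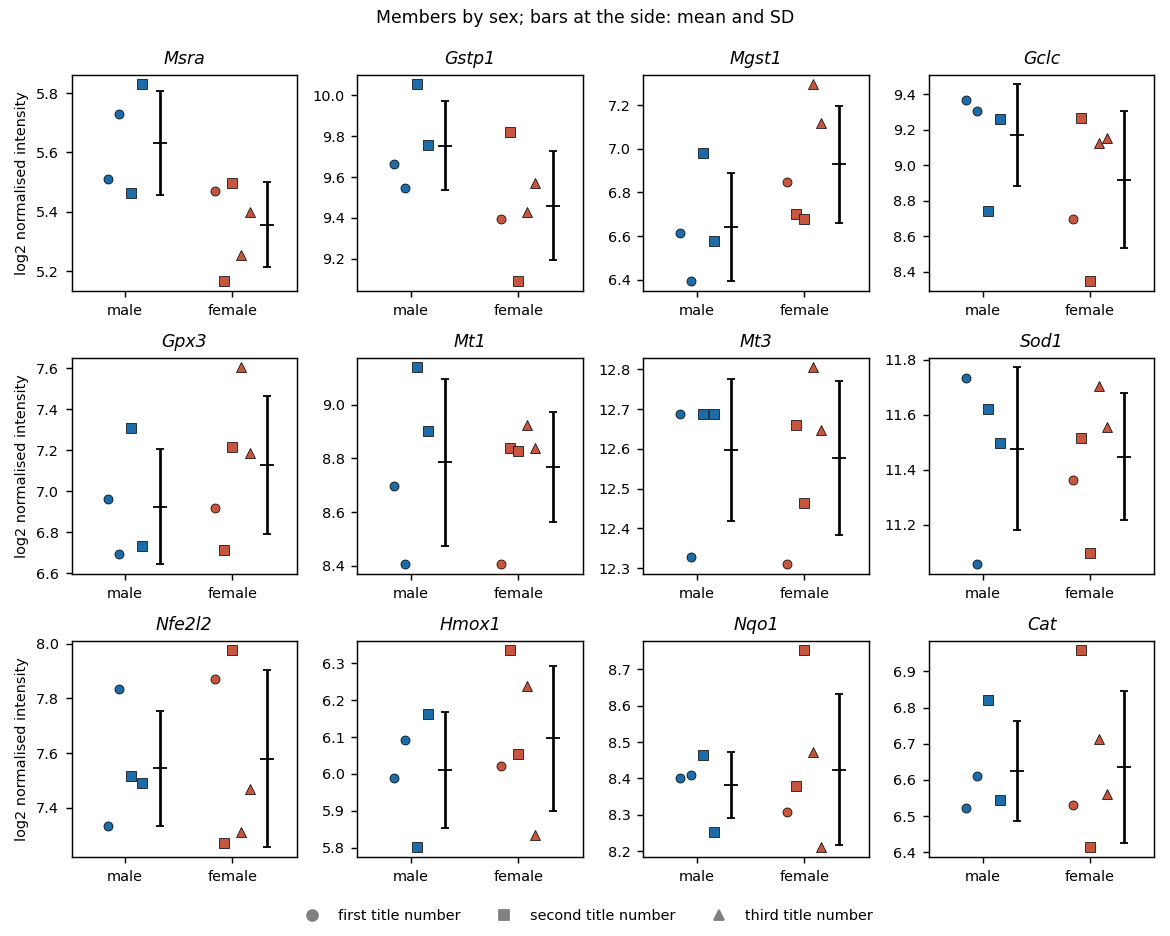
Log2 normalised intensity of 12 members in males (blue) and females (red), 1 symbol per animal, with the shape showing the title number and bars at the side giving the mean and SD. In every panel the sexes overlap, and Msra has its 2 highest values, 5.83 and 5.73, in males.

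**Figure D3:**
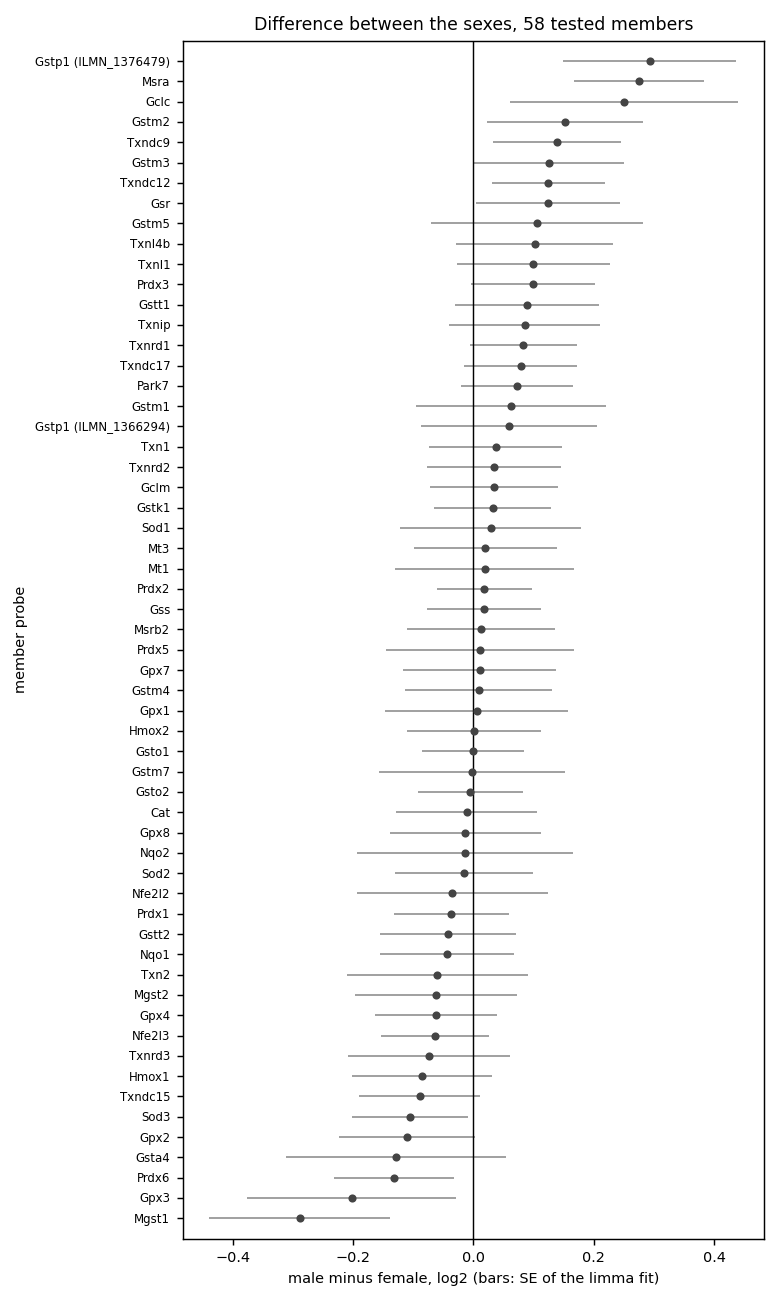
Difference between males and females (male minus female, log2, horizontal axis) for the 58 tested member probes (vertical axis), with the standard error of the limma fit as bars. Differences run from -0.29 for Mgst1 to 0.29 for 1 probe of Gstp1, and none passed the test.

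Title numbers did not pass the test for any member either, and the members with the smallest p were highest outside the first number. In limma's moderated F test with sex in the fit, 0 of 58 members had an adjusted p under 0.05 (lowest 0.483), against 0% of all tested probes. An unadjusted p under 0.05 was found for 8 members (13.8%), against 9.22% of all tested probes. These were Gstm5, Mt1, Txn1, Txn2, Gstm4, Mgst1, Gstm1 and the Gstp1 probe ILMN_1366294. All 8 had the second and the third title number above the first, a pattern at that p in 4.7% of all tested probes. The opposite pattern held for 0 members and 3.79% of all. Without regard to p, 37 of 58 members (63.8%) had the second and the third above the first, against 38.1% of all tested probes, and 11 (19%) had both below it, against 38.7% of all.

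For Gstm5 the means were 10.22 in the second, 10.02 in the third and 9.69 in the first title number, and the fitted differences from the first were 0.57 and 0.50. For Mt1 the means were 8.93, 8.88 and 8.50 in the same order, with fitted differences of 0.45 and 0.49. For Txn1 they were 10.30, 10.34 and 10.07, with differences of 0.26 and 0.39. In these 3 members every animal of the second and the third number was above every animal of the first, as in 2% of all tested probes. The lowest animal of the second and the third number stood at 9.819 for Gstm5, against 9.818 for the highest of the first, so the groups nearly touched. For Mt1 these were 8.83 and 8.70, and for Txn1 10.18 and 10.10. The reverse separation held for 0 members and 1.41% of all. Txn2 averaged 8.09 in the second, 8.18 in the third and 7.75 in the first. Gstm4 averaged 5.90, 6.10 and 5.75 and Mgst1 6.73, 7.21 and 6.62, so that for Mgst1 the third number stood apart. Gstm1 averaged 10.01 in the second, 10.05 in the third and 9.69 in the first. Median raw intensity moved with the numbers, at 47.9 to 49.2 in the second, 49.2 to 50.5 in the third and 53.6 to 57.2 in the first, and its part in the result was not tested. The count of 8 was 2 (3.45%, against 9.68% of all tested probes) when arrays were scaled to their median in place of quantiles. It was 4 without female 1 (6.9%, against 2.85% of all) and 4 without male 2 (6.9%, against 7.19%). Without the 3 arrays that stood apart it was 0, against 2.44% of all. The members' excess over all tested probes at that p thus did not hold in every setting. All 8 kept the second and the third number above the first under median scaling, but 1 did not without male 3. Over all members, 25 of 58 (43.1%) had that direction under median scaling, against 28.9% of all tested probes. Without the 3 arrays that stood apart, 2 of which hold the first number, it was 26 of 58 (44.8%), against 36% of all. Median scaling moved the median of all tested probes to -0.06 for the second minus the first.

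**Figure D4:**
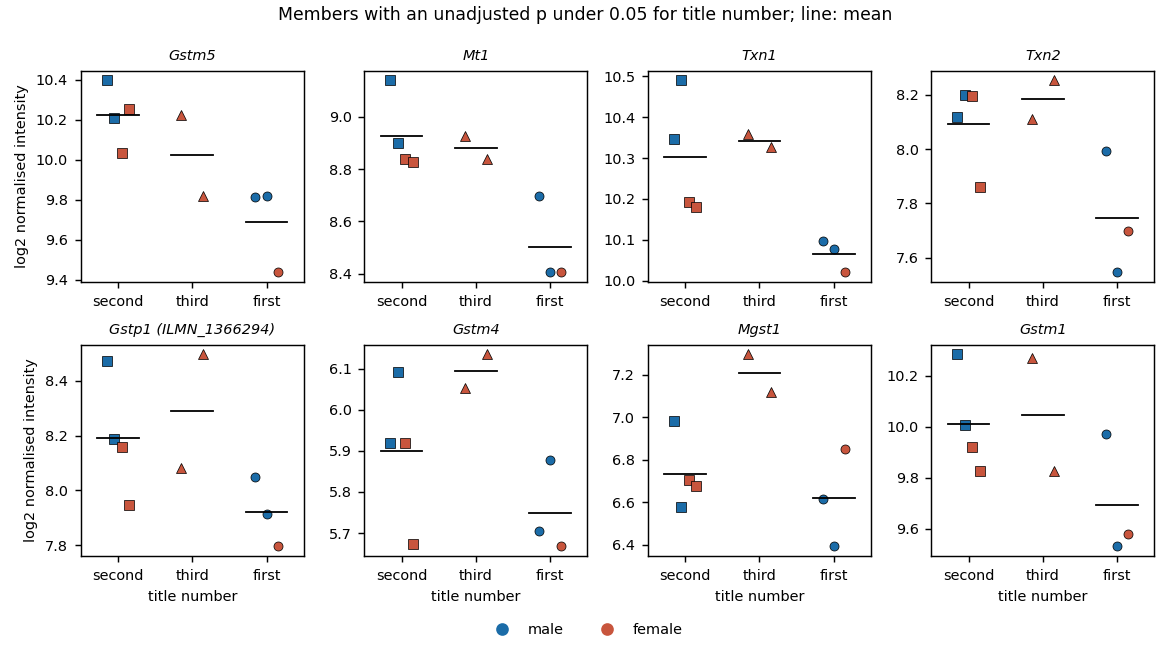
Log2 normalised intensity of the 8 member probes with an unadjusted p under 0.05 for title number, by title number (horizontal axis), 1 symbol per animal with males in blue and females in red, and the mean as a line. In Mt1 and Txn1 the 3 animals of the first number lie below all others.

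Pairs of members that act in 1 step or share a known regulator were correlated over the 9 animals, by exact permutation of the pairings, two-sided, adjusted over the 8 measured pairs. Mt1 and Mt3 varied together at r = 0.82 (exact permutation p = 0.00941, adjusted 0.0753) and rho = 0.78 (exact p = 0.0181, adjusted 0.0724). Without the 2 animals farthest from the Mt1 median r was 0.25, and among the 6 arrays that did not stand apart it was 0.18, so the relation rests on male 2 and female 1. About title number means it was 0.79. Gpx4 and Gpx1 correlated at r = 0.71 (exact p = 0.0256, adjusted 0.102) and rho = 0.80 (exact p = 0.0138, adjusted 0.0724), with 0.77 without the 2 farthest animals and 0.46 among the 6 arrays. Txnip and Txn1 ran against each other at r = -0.55 (exact p = 0.130, adjusted 0.259) and rho = -0.52 (exact p = 0.162, adjusted 0.315), with r at -0.27 without male 4 and -0.88 without male 3. Gclc and Gclm, the subunits of 1 enzyme, correlated at 0.24 (exact p = 0.529, adjusted 0.604), a value that single animals decide, at 0.63 without female 1 and -0.20 without female 3. Hmox1 and Nqo1 gave 0.09 (exact p = 0.821, adjusted 0.821), or -0.17 without female 5. Sod1 and Sod2 gave r = -0.60 (exact p = 0.0854, adjusted 0.228), Gstm1 and Gstp1 0.45 (exact p = 0.221, adjusted 0.354), and Txnrd1 and Txn1 0.36 (exact p = 0.334, adjusted 0.446). Gstm1 with Gstp1 was 0.18 without male 3, and among the 6 arrays that did not stand apart Sod1 with Sod2 was 0.22 and Txnrd1 with Txn1 -0.34. Their rho values were 0.38 for Gclc, 0.10 for Hmox1, -0.42 for Sod1, 0.57 for Gstm1 and 0.48 for Txnrd1, with adjusted exact permutation p from 0.306 to 0.810. None of the 8 passed after adjustment.

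Members were also set against marker lists of cell types and of glucocorticoid response, 13 relations in all, adjusted together. The closest was Hmox1 with the glucocorticoid-responsive genes, at r = 0.74 (exact permutation p = 0.0167, adjusted 0.218) and rho = 0.78 (exact p = 0.0172, adjusted 0.224). It was 0.53 without the 2 animals farthest from the Hmox1 median and 0.84 among the 6 arrays that did not stand apart. Male 3 had the lowest Hmox1 value and the lowest list score, -0.63, against -0.17 to 0.32 in the other animals. Mt1, known to respond to glucocorticoids, gave r = -0.37 (exact p = 0.326, adjusted 0.567) with the same list, and Txnip -0.46 (exact p = 0.219, adjusted 0.567). Both rest on male 3, without which r was 0.25 for Mt1 and 0.03 for Txnip. Gpx8 with genes of the meninges gave 0.54 (exact p = 0.133, adjusted 0.567), and Gstp1 with oligodendrocyte genes 0.50 (exact p = 0.171, adjusted 0.567). Mt3 and Prdx6 with astrocyte genes gave 0.16 and 0.36 (exact p = 0.667 and 0.349). Among the 6 arrays that did not stand apart Mt3 gave 0.69 and Prdx6 0.46, and Mt3 gave -0.09 without female 4. On those 6 arrays Gpx8 with meninges was 0.82 and Gstp1 with oligodendrocyte genes 0.76, and none of these 4 passed after adjustment by r. By rho Gpx8 with meninges had an adjusted exact permutation p of 0.0361 there and 0.0290 without male 2, against 0.371 over all 9 animals. Astrocyte scores varied little, from -0.11 to 0.07 in males and from -0.08 to 0.11 in females. Of the tested genes, 10 of 10 oligodendrocyte, 10 of 12 meningeal and 5 of 6 red cell genes were higher in males, against 50.9% of all tested probes. Single animals weighed on these lists. Female 4 scored -0.96 for oligodendrocyte genes, against -0.18 to 0.47 in the others. Female 5 scored -0.81 for meninges and -0.40 for red cells, against -0.38 to 0.36 and -0.15 to 0.33. Also higher in males were 3 of 5 glutamatergic, 3 of 6 GABAergic, 4 of 10 astrocyte and 3 of 8 microglial genes. For endothelium it was 1 of 5, for choroid plexus 1 of 7, for striatum 1 of 10 and for glucocorticoid-responsive genes 0 of 12. Median differences of the lists ran from -0.39 for striatal genes to 0.23 for oligodendrocyte genes. They were -0.32 for choroid plexus and -0.18 for glucocorticoid-responsive genes. About sex means Gstp1 with oligodendrocyte genes was 0.45. The remaining 6 relations had adjusted p from 0.567 to 0.688. For rho, the 12 relations other than that of Hmox1 had adjusted p from 0.371 to 0.948.

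**Figure D5:**
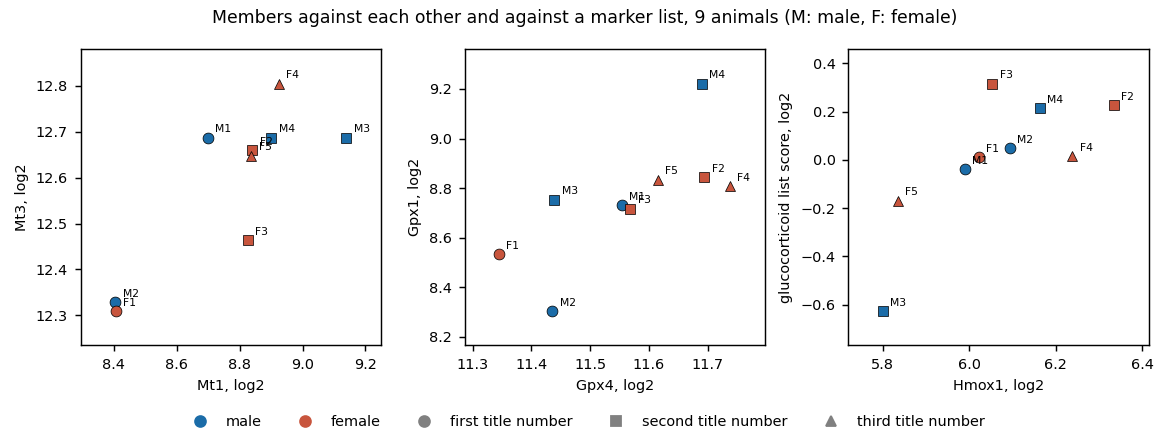
Mt1 against Mt3, Gpx4 against Gpx1 and Hmox1 against the glucocorticoid list score (log2 scales) in 9 animals, males in blue and females in red, with the shape showing the title number. Male 2 and female 1 form the low end of the metallothionein pair, at 8.41 for Mt1 in both.

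Genes of the same pathways outside these families did not pass the test for sex either. Of 76 listed neighbours, among them NRF2 regulators, cystine transport, glutaredoxins, NADPH supply, zinc transport and selenoprotein synthesis, 65 had a named probe and 60 were tested. None had an adjusted p under 0.05 in limma for sex, 0 had an unadjusted p under 0.05, and their median difference was 0.00. The nearest was Sesn1, chosen after values were seen, a p53-induced regulator of peroxiredoxin recycling and mTOR, at 9.21 ± 0.14 (SD) over the 4 males and 9.42 ± 0.13 (SD) over the 5 females, with a difference of -0.21 ± 0.10. By title number 5 of 60 had an unadjusted p under 0.05, which were Nnt, Cbr1, Slc30a3, Mafk and Cox17, against 9.22% of all tested probes.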

How the data were processed

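Per the labels' protocols, 250 ng of cortex RNA was made into biotin-labelled cRNA for Illumina bead arrays. Each deposited array file lists a linear intensity for each of 22517 probes, not normalised between arrays per the values. For scanner software and background correction, the sources used here give nothing. The deposited value table holds the authors' log2 values, with nearly equal quantiles in every column, for 15912 probes, and 0 of its columns were left unmapped. Here the intensities were corrected with limma's normexp (offset 16), quantile normalised and log2 transformed. Probes above the bound (99th percentile of the probes outside the value table) on at least 4 of 9 arrays were tested with lmFit and eBayes (limma 3.58.1, R 4.3.3), two-sided, with Benjamini-Hochberg adjustment, male minus female, and with an F test for title number. Replicate numbers only name animals, and nothing says what the title number marks. The limma p-values set a difference between group means against the variance between these animals. Without a block the sex fit treats the 9 animals as independent. The procedure was tested on simulated data. Correlations used exact permutation in Python 3.11.15.

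Gene names came from GEO's platform annotation, updated by gene identifier through RefSeq GRCr8, where all 60 member probes matched and 0 symbols changed. Values of a gene with several probes used the brightest. The members, lists, pairs and tests were chosen with earlier results of these data known. Members named with values were those with an adjusted p under 0.05, the one with the smallest sex p of each class, the 12 with the largest SD within sex on all 9 arrays, and a fixed list of core enzymes, 35 in all. Other members are named where a class or a count of 8 or fewer is spelled out, chosen after their values were seen. Alternatives were no background correction, an offset of 50, median scaling, the authors' log2 values, other filters and bounds, eBayes with trend and robust settings, a fixed or a random block for title number, each animal left out, and the 3 arrays apart left out. Chosen after seeing the data were the sex difference within title numbers, both Gstp1 probes and an F test without sex.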

Additional observations from a re-analysis of the deposited data

Results flagged for a closer look

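Of 70 groups of one sex for the 35 named members, 3 held an animal far from the others, where chance gives about 1 in 20, or 3.5. Gclc in male 3, at 8.74, lay below the other males, at 9.26 to 9.37. Mt1 in female 1, at 8.41, lay below the other females, at 8.83 to 8.93. Mt3 in male 2, at 12.33, lay below the other males, which quantile normalisation placed at the same value of 12.69. With those males tied, any lower value would have been flagged, so this flag does not measure how far male 2 lay. Raw intensities of Mt3 were 5124 in male 2 and 7506, 6065 and 6515 in males 1, 3 and 4. No named member had a sex difference that differed between the second and the first title number, with a lowest adjusted p of 0.999 in limma for that interaction.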

How the results depend on the processing

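No member was called for sex under any of 19 alternatives (lowest adjusted p 0.847) or for title number under any of 17 (lowest 0.214), and no pathway neighbour for sex with the authors' log2 values or the title number block. At an unadjusted p under 0.05 the count for sex, 1, was 2 with no filter and 0 to 2 with 1 animal left out, at 0 without male 4 or female 4 and 2 without male 3, female 2 or female 3. The share of all tested probes at that p was 1.93% in the fit described above. It was not taken for these alternatives, so their counts cannot be set against it. The title number count of 8 was 9 with the authors' log2 values (15.5%, against 9.57% of all tested probes). It was 11 at an offset of 50 (19%, against 9.58%) or with no filter (18.3%, against 7.88%). Without a sex term it was 6, with no share over all tested probes taken. With 1 animal left out it was 4 to 9, or 6.9% to 15.5%, against 2.85% to 13.4% of all. The median SD was 0.16 with the authors' values and 0.18 to 0.19 with 1 animal left out. Of 35 named members, 24 changed the sign of their sex difference in at least 1 alternative, and 11 in none. In 2 of the 24 the value over all animals, or the one of opposite sign, lay more than 1 SE from 0. Gclc turned from 0.25 ± 0.19 to -0.059 ± 0.16 without the 3 arrays apart, the latter within 1 SE of 0. Gpx1 turned from 0.01 ± 0.15 to -0.15 ± 0.13 without male 4. Within the second title number Gpx3 stood at 0.057, Mgst1 at 0.088 and Txndc12 at -0.00075. The cause was not tested. Pair correlations passing adjustment by r, 0 over all animals, numbered 0 to 2 with 1 animal left out (Mt1 with Mt3 without male 1 or male 3, and Txnip with Txn1 at -0.88 without male 3) and 2 about sex means (Mt1 with Mt3 at 0.81, Gpx4 with Gpx1 at 0.74). Sod1 with Sod2 turned to 0.22 without the 3 arrays apart. Marker list relations passing by r numbered 0 to 1 with 1 animal left out (Hmox1 with glucocorticoid-responsive genes at 0.83 without female 3). Replicate numbers only name the animals and pair none, so title number was the block. Probes with no bead counts or detection values leave the precision within an array unknown.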
